A study of Mus musculus with 16 samples.

Results

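Aminoacyl-tRNA synthetases join each amino acid to its own transfer RNA, the step that fixes how codons are read in translation. Animal cells run this step in the cytosol and again inside mitochondria, and most amino acids have a separate nuclear gene for the mitochondrial enzyme, whose symbol ends in 2. Several cytosolic enzymes are held together in a multi-synthetase complex, and a number of cytosolic synthetase genes are known targets of the stress factor ATF4, which is made when uncharged transfer RNA activates the kinase GCN2. The genes described here are those whose mouse symbol is a single amino acid letter (or Ep) followed by ars, with or without 1, 2, a or b. This rule matched 35 genes in the Tcon table and 34 in the Treg table, and 34 of the 10774 genes that both tables hold. Of these 34, 18 encode cytosolic forms and 16 encode mitochondrial forms. Gars and Kars each encode the enzyme of both compartments and are counted as cytosolic here. The rule used no measured value.

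RNA came from conventional CD4+ T cells (Tcon, FOXP3-) and regulatory CD4+ T cells (Treg, FOXP3+), both taken from spleen and lymph node of mice of the strain B6.Cg-Foxp3tm2Tch/J, which carries a FOXP3-IRES-GFP reporter, with the genotype given as WT. The groups were Treg from venetoclax mice, Treg from vehicle mice, Tcon from venetoclax mice and Tcon from vehicle mice, with 4 libraries each and 16 in all. Venetoclax, a drug that blocks the survival protein BCL-2, was given at 50 mg/kg for 14 days, and controls received vehicle for 14 days. The sources used here give no age or sex and do not say whether animals were pooled. The labels call the 4 libraries of a group biological replicates without naming animals, so p-values measure the spread between these libraries.

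Reads assigned to genes ran from 21335006 to 25027038 per Treg library and from 22982210 to 24960570 per Tcon library. Foxp3, the factor that defines Treg, lay between 747.0 and 920.0 CPM (reads scaled to the depth of the library) in the Treg libraries and between 27.3 and 32.4 CPM in the Tcon libraries, so the Tcon libraries were low in Foxp3 but not free of it. Of 28 markers of other cell types (B, plasma, CD8 T, NK, myeloid, dendritic, neutrophil, erythroid and platelet), 17 were in the Treg table and 18 in the Tcon table. Their summed level ran from 46.5 to 103.0 CPM in venetoclax and from 50.2 to 66.9 CPM in vehicle Treg libraries, and from 67.2 to 121.0 CPM in venetoclax and from 83.7 to 105.0 CPM in vehicle Tcon libraries. In Treg 1 of the 17 changed (the B cell surface protein Cd22, log2 0.603) and in Tcon 1 of the 18 (the NK receptor Klrd1, log2 -0.867), both by limma, while 5 in Treg and 4 in Tcon stood at an unadjusted p under 0.05. With the replicate number as a block, 5 of 17 passed in Treg (Cd22, Hbb-bs, Hba-a1, Cd8a and Cd68) and 4 of 18 in Tcon (Klrd1, Cd22, Itgam and Hbb-bs), beside 22.3% and 16.8% of all genes. The part of these cells in the results below was not tested. Ncr1, Siglech, S100a8, Pf4 and Ppbp were among those in neither table. Venetoclax and vehicle replicate 3 stood apart from the other Tcon libraries on the second principal component (19.0 for venetoclax and 21.8 for vehicle, the other 6 at -1.1 or below). The Y-linked gene Ddx3y was at a normalized count of 5539 (Treg) and 6674 (Tcon) in venetoclax replicate 2 and 5326 and 5664 in vehicle replicate 2, at intermediate values in venetoclax replicate 1 (1695 and 1468) and replicate 3 (2872 and 3050), and at most 1 in the other libraries. Ddx3y was thus uneven between the treatments, being well above 1 in venetoclax replicates 1, 2 and 3 but in vehicle replicate 2 alone. Where a call turns on them, results are given below without replicate 3 of both treatments, without venetoclax replicates 1 and 3, or with Ddx3y as a covariate.

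Promoter sequences are shown first, since ATF4 and Myc, whose values are given further on, bind known letters there. RefSeq promoters (250 bases before to 50 after the start site, GRCm38.p6) were matched for 24 of the 34 genes, 11 cytosolic and 13 mitochondrial. The core of the C/EBP-ATF response element, searched as TGATGNAA on both strands, was found in 5 of the 11 cytosolic promoters (Aars, Gars, Iars, Tars and Yars) and in 0 of the 13 mitochondrial ones, against 2.32% of the promoters of the genes in these tables and 4.06% of all promoters. The E-box CACGTG, bound by Myc and related factors, was found in 4 of 11 cytosolic promoters (Aars, Farsb, Iars and Tars) and 1 of 13 mitochondrial ones (Ears2), against 10.3% of the promoters of the genes in these tables and 7.24% of all. A match of letters describes the sequence and does not show that a factor binds. The next lines give 60 bases with the match in capitals, 5′ to 3′ on the gene's strand, for the matches that lie before the start site. The response element appears as the reverse complement of the searched letters. Aars spans 111027778 to 111055569, so both of its stretches lie before the start site of the RefSeq promoter but inside the outer bounds of the gene.
Aars, response element, chr8:111033704-111033763, plus strand: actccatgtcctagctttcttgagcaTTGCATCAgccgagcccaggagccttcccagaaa
Aars, E-box, chr8:111033670-111033729, plus strand: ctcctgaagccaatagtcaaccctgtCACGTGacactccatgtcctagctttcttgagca
Gars, response element, chr6:55037941-55038000, plus strand: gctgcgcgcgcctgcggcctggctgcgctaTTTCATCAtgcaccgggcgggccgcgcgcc
Tars, response element, chr15:11399659-11399718, minus strand: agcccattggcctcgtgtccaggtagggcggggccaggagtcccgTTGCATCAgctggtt
Farsb, E-box, chr1:78488903-78488962, minus strand: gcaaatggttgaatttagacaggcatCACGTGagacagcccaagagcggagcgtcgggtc
Iars, E-box, chr13:49682035-49682094, plus strand: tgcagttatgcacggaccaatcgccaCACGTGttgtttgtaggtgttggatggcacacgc

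Iars2, the mitochondrial isoleucyl-tRNA synthetase, is the gene whose change is described first, and 120 bases before the start site used in the RefSeq promoter table are shown for comparison with the promoters above. That site lies inside the outer bounds of the gene given with its values, so the first bases before it are within those bounds. Neither set of letters was found in its promoter, which says only that those letters are not in that window. Of the bases shown, 55.0% are G or C.
Iars2, chr1:185329402-185329521, minus strand: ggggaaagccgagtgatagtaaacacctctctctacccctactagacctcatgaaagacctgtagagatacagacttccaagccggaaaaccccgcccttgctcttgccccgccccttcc

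Whether venetoclax changed these genes was tested within each subset on log2(normalized count + 1) with limma, and a gene is called changed where its p-value, adjusted over all genes of the table by Benjamini and Hochberg, is under 0.05. Few synthetase genes changed. In Treg, 2 of the 34 genes fell (Iars2 and Lars) and none rose, while 19.6% of all genes tested were called (8.81% as lower). In Tcon, 1 of the 34 fell (Iars2) and none rose, while 6.91% of all genes were called (2.99% as lower). Neither count is a larger share than that of all genes. Changes of the 34 genes spanned -0.325 to 0.196 in Treg and -0.26 to 0.257 in Tcon on the log2 scale, with a median standard error of 0.0615 in Treg and 0.087 in Tcon. At an unadjusted p under 0.05 stood 7 genes in Treg and 6 in Tcon. In these bulk libraries, fewer cells of a kind and less RNA per cell cannot be told apart.

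Iars2 fell in both subsets. In Treg its normalized counts were 1734, 1848, 1899 and 1796 in the venetoclax libraries, against 2249, 2300, 2368 and 2197 in the vehicle libraries. In Tcon they were 1928, 2043, 1890 and 2079 in the venetoclax libraries, against 2446, 2401, 2371 and 2256 in the vehicle libraries. Each venetoclax library was below each vehicle library in both subsets. The level fell by 20.2% in Treg (log2 -0.325, SE 0.049, adjusted p = 0.000822 with limma) and by 16.2% in Tcon (log2 -0.255, SE 0.061, adjusted p = 0.0328 with limma). The Treg call was made under each of 20 alternative settings (adjusted p from 1.68e-07 to 0.0142), whereas the Tcon call was lost under 9 of 20 (adjusted p up to 0.369, without venetoclax replicates 1 and 3), with the log2 change between -0.278 and -0.2. In Tcon it was lost when any of the venetoclax replicates was left out (adjusted p from 0.0514 without replicate 4 to 0.124 without replicate 1, limma), and without vehicle replicate 1 (0.0909) or 2 (0.0883). The Tcon call was also lost with Ddx3y as a covariate (log2 -0.244, adjusted p = 0.14 with limma) and with a constant prior (0.0561). The change did not pass the test of a difference between subsets (Treg minus Tcon -0.07, SE 0.07, adjusted p = 0.865 with limma). The gene spans 185286642 to 185329419 on the minus strand of chromosome 1, and 2034 of its 5471 exonic bases (37.2%) overlap exons of Rab3gap2 on the other strand. Whether the authors counted by strand is not given, so reads in that stretch could belong to either gene. Rab3gap2, a subunit of a Rab3 regulator, was at 1952 ± 53.6 in venetoclax and 1940 ± 57.2 in vehicle Treg (SD, n = 4), and at 1450 ± 63.8 in venetoclax and 1480 ± 102.0 in vehicle Tcon (SD, n = 4), and was not called (limma adjusted p = 0.917 in Treg and 0.869 in Tcon).

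Iars, the cytosolic isoleucyl-tRNA synthetase and the partner of Iars2, was not called in either subset. Its counts were 2265, 2242, 2307 and 2064 in venetoclax Treg, against 1996, 1975, 2124 and 2087 in vehicle Treg, and these groups overlapped (log2 0.117, SE 0.051, adjusted p = 0.125 with limma). They were 2744, 3343, 3039 and 2514 in venetoclax Tcon, against 3156, 2846, 2576 and 2508 in vehicle Tcon, again overlapping (log2 0.068, SE 0.102, adjusted p = 0.764 with limma). Per length of exon, the ratio of Iars to Iars2 was 1.51 ± 0.0798 in venetoclax and 1.11 ± 0.0474 in vehicle Treg (SD, n = 4), and 1.82 ± 0.244 in venetoclax and 1.44 ± 0.113 in vehicle Tcon (SD, n = 4). In Treg the ratios of the venetoclax libraries (1.42 to 1.62) all lay above those of the vehicle libraries (1.06 to 1.17), and in Tcon they overlapped.

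Lars, the cytosolic leucyl-tRNA synthetase and a subunit of the multi-synthetase complex, fell in Treg. Its counts were 1801, 1887, 1894 and 1969 in venetoclax Treg, against 2195, 2043, 2402 and 2142 in vehicle Treg, with no overlap (log2 -0.216, SE 0.056, adjusted p = 0.0173 with limma). In Tcon they were 1885, 2044, 2187 and 1905 with venetoclax, against 2496, 2196, 2232 and 2214 with vehicle. Those groups did not overlap either, but the change was not called (log2 -0.189, SE 0.073, adjusted p = 0.153 with limma). The Treg call was lost without vehicle replicate 3 (adjusted p = 0.0538 with limma) and without venetoclax replicate 1 (0.0566), and without venetoclax replicates 1 and 3 it stood at 0.163. It was also lost without replicate 3 of both groups (log2 -0.174, adjusted p = 0.097 with limma), with Ddx3y as a covariate (0.0792) and with a constant prior (0.0502). In Tcon Lars passed without replicate 3 of both groups (log2 -0.242, adjusted p = 0.0333 with limma). Lars2, its mitochondrial partner, is listed in the Tcon table alone and so is not among the 34. Its counts were 13080, 19370, 11810 and 9703 in venetoclax Tcon, against 17490, 13860, 11380 and 13620 in vehicle Tcon. These groups overlapped widely and were not called apart (log2 -0.093, SE 0.195, adjusted p = 0.835 with limma).

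**Figure D1:**
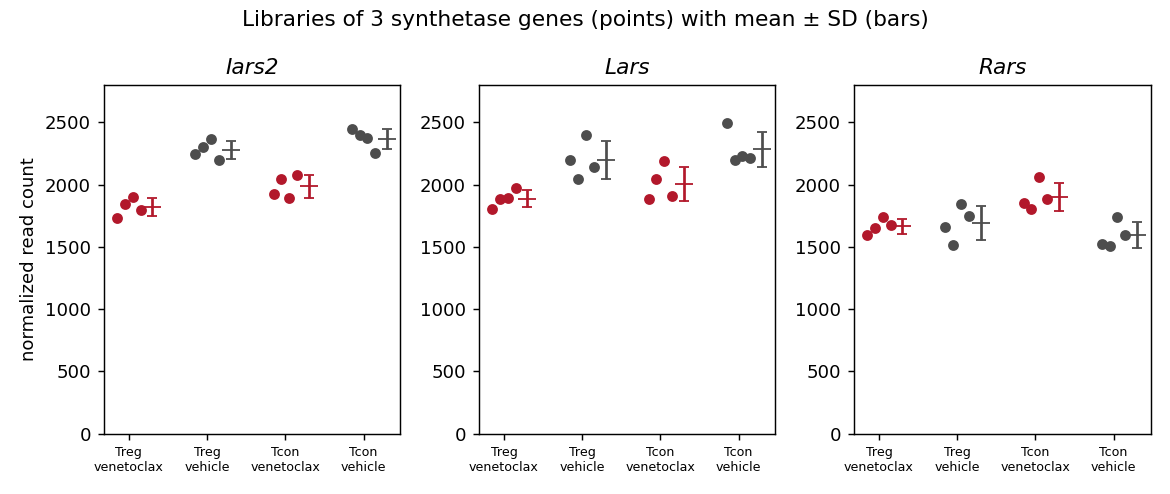
Normalized read count of Iars2, Lars and Rars (vertical axis) in the libraries of each group (points, in replicate order), with mean ± SD (bars, n = 4). The venetoclax libraries of Iars2 lie below the vehicle libraries in Treg (1734 to 1899 against 2197 to 2368) and in Tcon (1890 to 2079 against 2256 to 2446), while those of Rars lie above in Tcon (1807 to 2065 against 1511 to 1736) and overlap in Treg.

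Rars, the cytosolic arginyl-tRNA synthetase and another subunit of the complex, was higher in Tcon but depended on the model. Its counts were 1854, 1807, 2065 and 1884 in venetoclax Tcon, against 1522, 1511, 1736 and 1598 in vehicle Tcon, with each venetoclax library above each vehicle library. The change missed the threshold (log2 0.257, SE 0.071, adjusted p = 0.0564 with limma) and passed it without vehicle replicate 3 (0.0146). It also passed without replicate 3 of both treatments (log2 0.26, adjusted p = 0.0111 with limma). Deviations of same-numbered Tcon libraries of the 2 treatments correlated at 0.119 to 0.614, for replicate 1 no more than between mismatched numbers. With the replicate number as a block Rars passed (adjusted p = 0.0083 with limma). That fit called 16.8% of all Tcon genes, 2 of the 34 synthetase genes among them (Iars2 and Rars). In Treg the counts of Rars were 1598, 1651, 1737 and 1672 with venetoclax, against 1660, 1514, 1841 and 1748 with vehicle, which overlapped (log2 -0.019, SE 0.061, adjusted p = 0.854 with limma).

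The response of Rars differed most between the subsets by p, with a Treg minus Tcon difference of -0.277 (SE 0.093, adjusted p = 0.226 with limma), which missed the threshold. None of the 34 genes passed this test, against 1.3% of all shared genes, and 2 stood at an unadjusted p under 0.05. Treg and Tcon libraries of the same code deviated together, and this main fit left them unpaired. With the code as a block Rars passed (adjusted p = 0.0291 with limma), 1 of 34 against 3.61% of all shared genes. The next genes by p were Kars, the lysyl-tRNA synthetase of both compartments (difference -0.17, adjusted p = 0.447 with limma), and Farsa, a subunit of the cytosolic phenylalanyl-tRNA synthetase (-0.15, adjusted p = 0.539 with limma). Kars counts were 3152, 3138, 3107 and 3286 in venetoclax Treg, against 3441, 2985, 3412 and 3561 in vehicle Treg. In Tcon they were 2899, 2739, 2851 and 2820 with venetoclax, against 2776, 2612, 2557 and 2652 with vehicle. Kars groups overlapped in both subsets. Farsa counts were 1349, 1422, 1467 and 1400 in venetoclax Treg, against 1332, 1295, 1391 and 1412 in vehicle Treg. In Tcon they were 1563, 1628, 1655 and 1466 with venetoclax, against 1403, 1359, 1301 and 1411 with vehicle. Farsa libraries overlapped in Treg, and in Tcon each venetoclax library was above each vehicle library without a call (log2 0.204, SE 0.065, adjusted p = 0.0887 with limma).

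The other synthetase genes were not called. Of the 17 uncalled cytosolic genes in Treg the log2 changes ran from -0.156 (Sars, seryl) to 0.191 (Vars, valyl), and of the 18 in Tcon from -0.189 (Lars) to 0.257 (Rars). The 15 uncalled mitochondrial genes ran from -0.213 (Wars2, tryptophanyl) to 0.196 (Ears2, glutamyl) in Treg and from -0.26 (Pars2, prolyl) to 0.134 (Tars2, threonyl) in Tcon. Mars, the cytosolic methionyl-tRNA synthetase, stood just above the threshold in Treg (1185 to 1323 in venetoclax and 1360 to 1442 in vehicle libraries, log2 -0.155, SE 0.052, adjusted p = 0.0524 with limma). It passed with edgeR (adjusted p = 0.0374) and DESeq2 (0.0354) on the recovered reads. Without vehicle replicate 2, Mars (0.0456) and Sars (0.0323) passed with limma, and without venetoclax replicate 3 Vars did (0.0407). In the authors' deposited table the adjusted p of Mars in Treg is 0.0487. The authors' deposited table lists Iars2 at an adjusted p of 1.73e-07 and Lars at 0.00573 in Treg, and Iars2 at 0.00244, Rars at 0.0200 and Farsa at 0.0450 in Tcon.

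Counting rules gave similar small numbers. DESeq2 called 3 of the 34 genes in Treg (Iars2, Lars and Mars), where it called 21.9% of all genes, and 3 in Tcon (Iars2, Rars and Farsa), where it called 12.3%. With edgeR the same 3 genes passed in Treg, against 19.8% of all genes, and Iars2 alone in Tcon, against 7.04%. With the replicate number as a block, 3 passed in Treg (Iars2, Lars and Vars), against 22.3% of all genes. By overlap of libraries alone, 4 genes were lower in each venetoclax library in Treg (Iars2, Lars, Mars and Wars2), against 10.7% of all genes, and 0 were higher, against 12.0%. In Tcon 3 were lower (Iars2, Lars and Pars2), against 7.47% of all genes, and 3 were higher (Rars, Farsa and Hars), against 8.78%. Pars2 lay between 229.8 and 240.0 in venetoclax and between 266.2 and 304.8 in vehicle Tcon (log2 -0.26, SE 0.087, adjusted p = 0.104 with limma). Hars, the cytosolic histidyl-tRNA synthetase, lay between 1644 and 1792 in venetoclax and between 1509 and 1564 in vehicle Tcon (log2 0.153, SE 0.058, adjusted p = 0.147 with limma). Wars2 lay between 310.2 and 335.9 in venetoclax and between 348.6 and 455.7 in vehicle Treg (log2 -0.213, SE 0.095, adjusted p = 0.135 with limma).

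**Figure D2:**
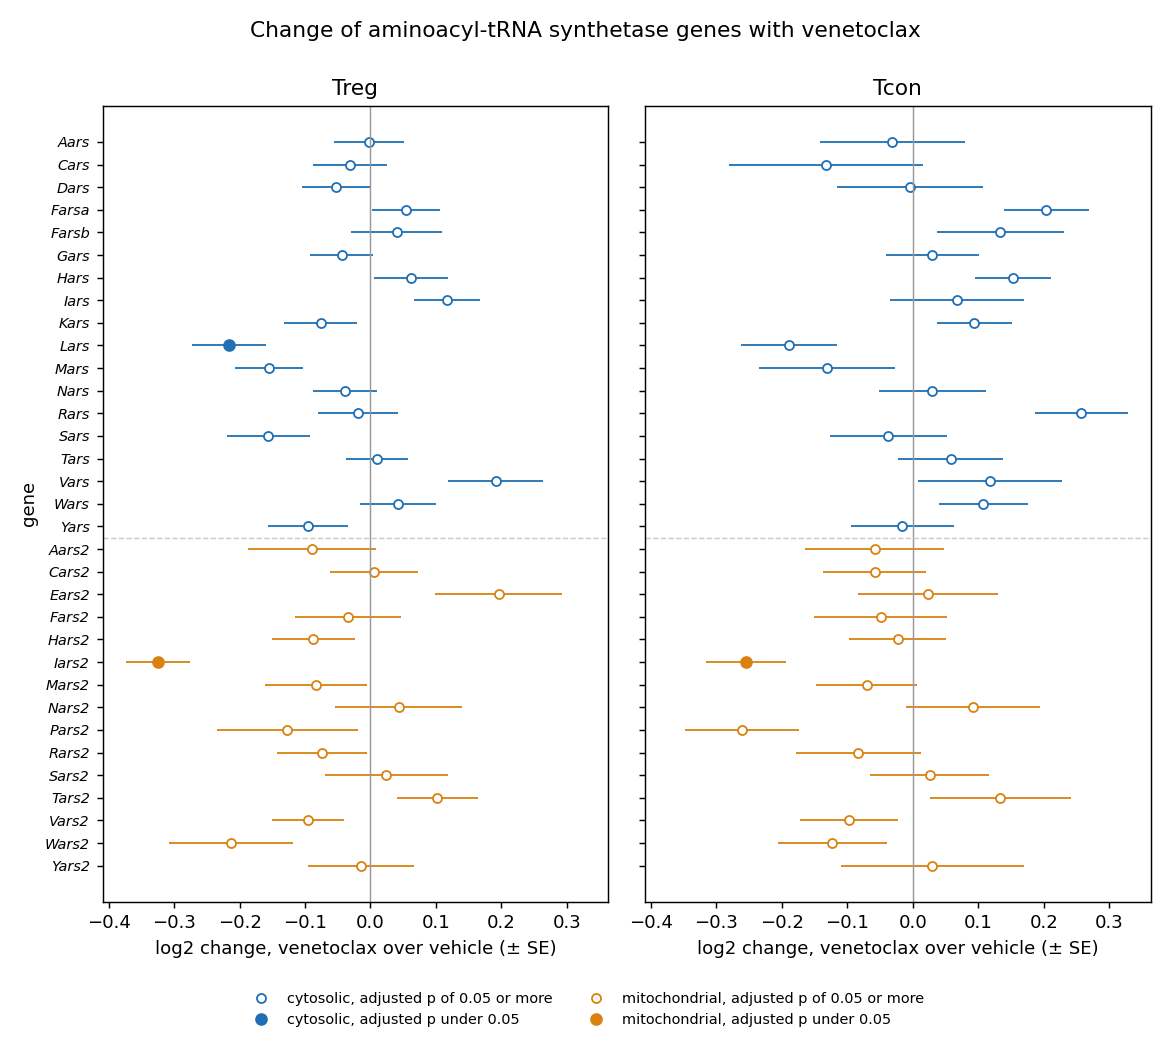
Log2 change (venetoclax over vehicle, horizontal axis) ± standard error for the 18 cytosolic (above the dashed line) and 15 of the 16 mitochondrial synthetase genes, in Treg (left) and Tcon (right, 4 venetoclax and 4 vehicle libraries each). Filled points passed the adjusted threshold of 0.05 (Iars2 and Lars in Treg, Iars2 in Tcon), and the other points lie between -0.26 and 0.257.

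Cytosolic and mitochondrial forms were then set side by side. In Treg the median log2 change was -0.025 over the 18 cytosolic genes (7 above 0, 11 below) and -0.054 over the 16 mitochondrial genes (6 above, 10 below), beside 0.005 over all genes of the table. In Tcon it was 0.044 over the cytosolic genes (11 above, 7 below) and -0.055 over the mitochondrial genes (5 above, 11 below), beside 0.002 over all genes. Between libraries of a group, the mean log2 level of the cytosolic genes varied with an SD of 0.0378 in Treg and 0.0742 in Tcon, and that of the mitochondrial genes with 0.0408 and 0.0293. No test was made over the list, and single libraries move these medians: with each library left out in turn, the cytosolic median ran from -0.044 to 0.004 in Treg and from 0.01 to 0.087 in Tcon, and the mitochondrial median from -0.06 to -0.026 in Treg and from -0.067 to -0.03 in Tcon. The lowest Tcon cytosolic value was without venetoclax replicate 3 and the highest without venetoclax replicate 4, and the Treg mitochondrial value nearest 0 was without venetoclax replicate 4. With upper quartile scaling the medians were -0.055 (cytosolic) and -0.084 (mitochondrial) in Treg, and 0.029 and -0.07 in Tcon. The median of the cytosolic genes in Treg took the other sign with Ddx3y as a covariate (0.015), without replicate 3 of both treatments (0.009) and without vehicle replicate 3 alone (0.004). By enzyme class, which describes the fold of the catalytic core, the medians were -0.052 for the 16 class I and -0.018 for the 18 class II genes in Treg, and -0.064 and 0.028 in Tcon. Both called genes are class I. The rule matched 6 genes for enzymes of the multi-synthetase complex (Rars, Dars, Iars, Lars, Mars and Kars). Their median was -0.064 in Treg, where 5 were below 0, and 0.032 in Tcon, where 3 were. Subunits that the rule does not match, such as Aimp2, are not in these medians.

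Summed over the 34 genes, reads made up 0.219% of the library in venetoclax and 0.22% in vehicle Treg, and 0.224% in venetoclax and 0.221% in vehicle Tcon. The cytosolic genes summed to 1702 ± 42.1 CPM in venetoclax and 1692 ± 38.7 CPM in vehicle Treg (SD, n = 4), and to 1740 ± 82.2 CPM in venetoclax and 1688 ± 94.6 CPM in vehicle Tcon (SD, n = 4). The mitochondrial genes summed to 492.6 ± 11.8 CPM in venetoclax and 508.8 ± 19.9 CPM in vehicle Treg (SD, n = 4), and to 500.6 ± 17.3 CPM in venetoclax and 519.2 ± 36.1 CPM in vehicle Tcon (SD, n = 4). Each of these pairs of sums differed by no more than the larger spread between libraries.

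Levels of different genes are compared per length, as RPKM, the recovered reads scaled to the length of the exons and to the depth of the library. In vehicle Treg the cytosolic genes had a median of 28.2 RPKM, from 10.2 (Cars, cysteinyl) to 62.8 ± 4.44 (Kars), and the mitochondrial genes a median of 8.53 RPKM, from 1.94 (Mars2, methionyl) to 24.9 ± 2.2 (Tars2). Dars (aspartyl, 57.3 ± 2.51), Vars (57.0 ± 3.86) and Nars (asparaginyl, 55.1 ± 1.95) came next (SD, n = 4), and the libraries of Kars ran from 56.5 to 66.7 RPKM. In vehicle Tcon the cytosolic median was 29.5 RPKM, from 13.2 (Aars, alanyl) to 62.0 ± 9.3 (Dars), and the mitochondrial median was 9.56 RPKM, from 2.34 (Mars2) to 18.3 ± 0.92 (Iars2). Cars2 (cysteinyl, 18.2 ± 1.87) was level with Iars2 there. Lars2, in the Tcon table alone, was far above the rest at 147.0 ± 45.6 RPKM in venetoclax and 153.0 ± 30.5 RPKM in vehicle libraries (SD, n = 4). Its venetoclax libraries ran from 108 to 212 RPKM. Lars2 has 3894 exonic bases by the lengths used and 11089 with all annotated exons, so its level per length is uncertain. Mars2 has 11294 exonic bases in the annotation used, the most among these genes, so its level per length is uncertain. Aars shares 1326 of its 5750 exonic bases with Exosc6 on the same strand, so its level per length is uncertain too. Cars (14.9 ± 2.46 RPKM, SD, n = 4) was close to Aars in vehicle Tcon.

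For 14 amino acids both forms were measured, which gave 15 pairs, since the cytosolic phenylalanyl enzyme has the subunits Farsa and Farsb. The cytosolic form was higher in each of the 4 vehicle libraries in 13 pairs in Treg and 14 in Tcon. Median ratios of cytosolic to mitochondrial level were 3.01 in venetoclax and 2.86 in vehicle Treg, and 4.06 in venetoclax and 3.49 in vehicle Tcon. With lengths from all annotated exons they were 4.15 and 3.89 in Treg, and 3.69 and 3.17 in Tcon, in the same order. Which subset has the higher median ratio thus rests on the length used. The gap was wide for asparagine, where Nars was 16.1 ± 1.86 times Nars2 in vehicle Treg and 13.7 ± 0.992 times in vehicle Tcon (SD, n = 4). Cysteine ran the other way, with Cars at 0.652 ± 0.0346 of Cars2 in vehicle Treg and 0.822 ± 0.141 in vehicle Tcon, where the libraries ran from 0.687 to 1.01 (SD, n = 4). In Treg threonine also ran the other way, with Tars at 0.844 ± 0.0801 of Tars2 in vehicle Treg and 1.24 ± 0.278 times it in vehicle Tcon (SD, n = 4). With lengths from all annotated exons, the cytosolic form was higher in 14 pairs in Treg and 15 in Tcon, so the order of the cysteine pair rests on the length used. Cars2 also shares 422 exonic bases (22.2%) with Naxd on the other strand, and the part of reads from that stretch was not tested.

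**Figure D3:**
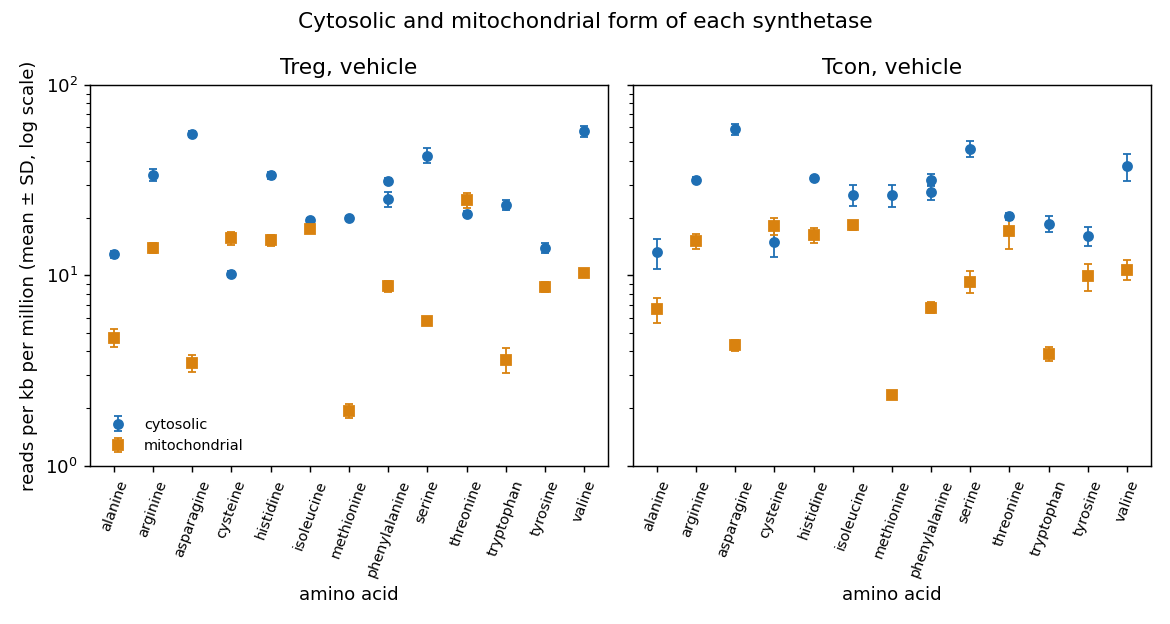
Level per length (RPKM, log axis, mean ± SD over 4 vehicle libraries) of the cytosolic (circles) and mitochondrial (squares) synthetase for 13 of the 14 amino acids with both, in Treg (left) and Tcon (right). Circles lie above squares for most amino acids, by up to 16.1-fold (asparagine, Treg), and below them for cysteine in both panels and threonine in Treg.

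Treg and Tcon levels come from tables normalized separately, so they are set side by side as RPKM without a test. In vehicle libraries 5 of the 34 genes were higher in each Treg library than in each Tcon library, against 24.5% of all shared genes, and 9 were lower in each, against 12.0%. Vars was at 57.0 ± 3.86 RPKM in Treg and 37.5 ± 6.05 RPKM in Tcon (ratio 1.52), and Tars2 at 24.9 ± 2.2 and 17.0 ± 3.19 RPKM (ratio 1.47; SD, n = 4). The other 3 were Fars2, the mitochondrial phenylalanyl enzyme (1.3), Kars (1.26) and Wars (1.26). Sars2, the mitochondrial seryl enzyme, was at 5.76 ± 0.303 RPKM in Treg and 9.26 ± 1.22 RPKM in Tcon (ratio 0.622), and Cars at 10.2 ± 0.373 and 14.9 ± 2.46 RPKM (ratio 0.683; SD, n = 4). With venetoclax 5 genes were again higher in each Treg library, against 30.2% of all shared genes, and 16 were lower, against 18.3%. Rars was among those 16, at 33.6 ± 1.38 RPKM in venetoclax Treg and 38.3 ± 1.84 RPKM in venetoclax Tcon (SD, n = 4), whereas the vehicle libraries overlapped. The median ratio of Treg to Tcon over the 34 genes was 0.898 with venetoclax and 0.926 with vehicle, beside 1.04 and 1.03 over all shared genes.

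**Figure D4:**
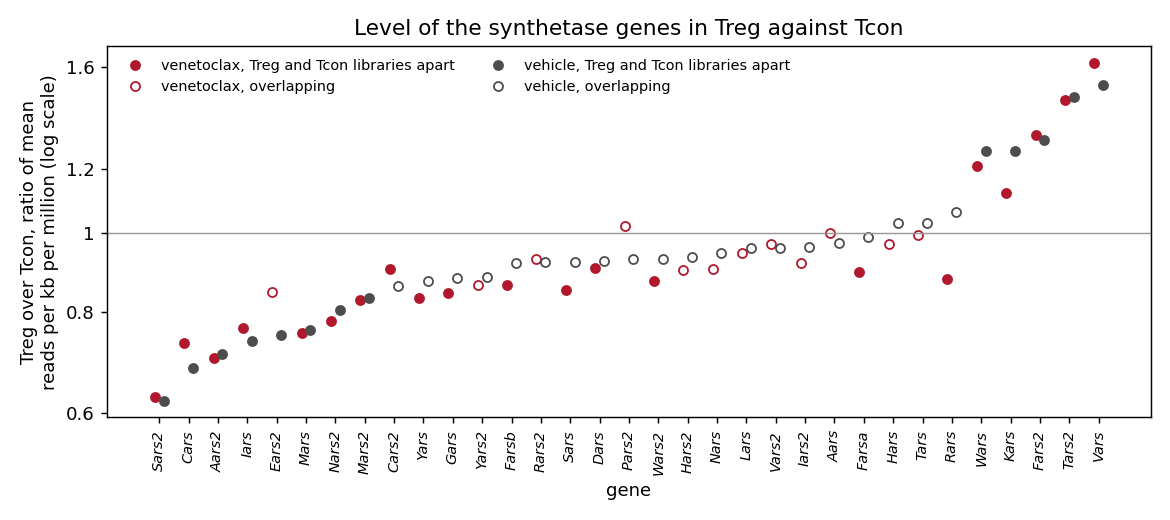
Ratio of the mean RPKM in Treg to that in Tcon (log axis) for 33 of the 34 synthetase genes, with venetoclax (red, left of each pair) and with vehicle (grey), in order of the vehicle ratio. Filled points have no overlap between the 4 Treg and 4 Tcon libraries; Sars2 is lowest (0.622 with vehicle) and Vars highest (1.62 with venetoclax and 1.52 with vehicle).

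Counts of neighbouring gene lists are to be read beside the 19.6% of all genes called in Treg and the 6.91% called in Tcon. Of 14 measured genes of transfer RNA charging (of 16 listed), 1 fell in Treg and 0 changed in Tcon with limma, where 2 stood at an unadjusted p under 0.05. Pstk, the kinase that prepares seryl-tRNA for selenocysteine, was at 319.0 ± 31.5 in venetoclax and 426.9 ± 39.5 in vehicle Treg (SD, n = 4; log2 -0.42, adjusted p = 0.0076 with limma). In Tcon it was at 318.8 ± 36.0 in venetoclax and 458.5 ± 88.4 in vehicle libraries (SD, n = 4; log2 -0.511, adjusted p = 0.0524 with limma, and 0.0121 with the replicate block). Aimp2, a scaffold of the multi-synthetase complex, was at 619.7 ± 57.8 in venetoclax and 512.2 ± 11.9 in vehicle Tcon (SD, n = 4), missed the threshold (log2 0.27, adjusted p = 0.0814 with limma) and passed with the replicate block (0.038). Eprs, the joint glutamyl and prolyl enzyme of the cytosol, whose symbol the rule does not match, was at 3799 ± 186.0 in venetoclax and 3811 ± 272.0 in vehicle Treg, and at 4342 ± 123.0 in venetoclax and 4049 ± 154.0 in vehicle Tcon (SD, n = 4), and was not called.

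ATF4 and its pathway moved unevenly. Atf4 itself fell in both subsets: it was at 2343 ± 258.0 in venetoclax and 3432 ± 411.0 in vehicle Treg (SD, n = 4; log2 -0.549, adjusted p = 0.00101 with limma), and at 2779 ± 252.0 in venetoclax and 4074 ± 791.0 in vehicle Tcon (SD, n = 4; log2 -0.536, adjusted p = 0.0289 with limma). Of the listed pathway genes, 19 were measured in Treg, where 2 fell (Atf4 and the factor Cebpb) and 0 rose, beside 19.6% of all genes called. In Tcon 20 were measured, of which 3 rose (Psat1, Mthfd2 and Sesn2) and 3 fell (Atf4, Cebpb and Trib3), beside 6.91% of all genes called. The smallest p values there were those of Trib3, a feedback inhibitor of ATF4 that fell (log2 -0.857, adjusted p = 0.00498 with limma), and Psat1 and Mthfd2, enzymes of serine synthesis and mitochondrial one-carbon metabolism that rose (log2 0.492, adjusted p = 0.00525, and log2 0.425, adjusted p = 0.0271, with limma). The 5 synthetase genes with the response element letters in their promoter were not called in either subset: their log2 changes in Treg were -0.002 (Aars), -0.044 (Gars), 0.117 (Iars), 0.01 (Tars) and -0.096 (Yars), and in Tcon -0.031, 0.03, 0.068, 0.058 and -0.016 in the same order.

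Factors that use charged transfer RNA were counted next, beside the same shares of all genes (19.6% in Treg and 6.91% in Tcon). Of 6 cytosolic elongation genes, 1 fell in Treg and 0 changed in Tcon with limma, also at an unadjusted p under 0.05. Eef1b2, an exchange factor of the carrier of charged transfer RNA, was at 19690 ± 1130 in venetoclax and 23510 ± 1880 in vehicle Treg (SD, n = 4; log2 -0.254, adjusted p = 0.0169 with limma). Of 10 measured mitochondrial translation factors, 0 changed in Treg with limma (1 at an unadjusted p under 0.05) and 1 rose in Tcon. Tufm, the mitochondrial elongation factor Tu, was at 1839 ± 90.1 in venetoclax and 1517 ± 78.7 in vehicle Tcon (SD, n = 4; log2 0.278, adjusted p = 0.0313 with limma). Of 9 measured Myc and ribosome biogenesis genes, 2 fell in Treg (the nucleolar proteins Npm1, log2 -0.22, and Fbl, log2 -0.167, with adjusted p of 0.0224 and 0.0418 from limma) and 0 changed in Tcon (1 at an unadjusted p under 0.05), again beside 19.6% and 6.91% of all genes. Myc itself was at 2455 ± 121.0 in venetoclax and 2443 ± 177.0 in vehicle Treg, and at 2000 ± 296.0 in venetoclax and 1630 ± 194.0 in vehicle Tcon (SD, n = 4), and was not called (limma adjusted p = 0.938 in Treg, and in Tcon 0.17, or 0.0214 with the replicate block).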

How the data were processed

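RNA-seq of 16 libraries (4 per group) was analysed from 1 table per subset, and the tables were normalized separately. Per the submitters' processing notes, HISAT2 and SAMtools were used with build mm10; the sources used here do not give versions, counter, annotation or strand setting. Per the file headers and values, the deposited normalized signal is a read count that the authors scaled by 1 factor for each library; all values were whole multiples of 1 step within a tolerance of 0.01, so reads were recovered. The deposited log2 fold changes and p-values are the authors' own and were used only where named. The Tcon table repeats 40 of 11211 lines and that of Treg 43 of 11110, and repeats were dropped (11171 and 11067 genes left). Depth allows up to 3 reads at a count of 0, which covers counting error only.

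The 34 members and the gene lists were chosen with earlier results of these data known. Per subset, log2(normalized count + 1) was compared with limma 3.58.1 (R 4.3.3, mean-dependent prior, Benjamini-Hochberg over all genes, threshold 0.05), after a check on simulated data, and the difference between subsets as an interaction over the 10774 shared genes, each table centred by 1 constant. edgeR 4.0.16 and DESeq2 1.42.0 on recovered reads were alternatives. RPKM uses exons of GENCODE M21 transcripts paired with a curated RefSeq mRNA (GRCm38, 1-based coordinates). The deviations of same-numbered Tcon libraries from their group means correlated at 0.119, 0.555, 0.614 and 0.272. Replicate 1 was no closer than mismatched numbers, as venetoclax replicate 1 stood at 0.292 with vehicle replicate 2. In Treg replicate 1 did not pair either (-0.039). Treg and Tcon libraries of the same code correlated at 0.461 to 0.766. The main fits left the libraries unpaired, and the replicate number or code as a block was an alternative. Replicates are biological per the labels' titles. Genes named with library values were those called, their partners in the other compartment and the 3 with the smallest p for the difference; lists are given by counts with up to 3 called genes, and others named were chosen after their values were seen. Cytosolic glutaminyl-tRNA synthetase was not analysed here, and values of 1 of the 34 genes and of some markers are not reported here.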

Additional observations from a re-analysis of the deposited data

Results flagged for a closer look

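Within each group of 4 libraries, the highest or lowest value of a synthetase gene was marked where its gap to the nearest other library, divided by the range of the group, was above Dixon's 95% critical value. Chance marks about 1 in 20 groups, and 6 of 132 groups (33 genes) were marked. In vehicle Tcon, replicate 3 was high for Dars (4680, the others 3166 to 3414) and Yars2 (479.2, the others 322.5 to 343.9), and it is the replicate that stood apart on the second principal component. Replicate 1 of vehicle Tcon was high for Lars (2496, the others 2196 to 2232). Replicate 2 of venetoclax Tcon was high for Cars2 (860.5, the others 755.5 to 771.7). In vehicle Treg, replicate 2 was high for Wars2 (455.7, the others 348.6 to 352.5) and low for Farsb (1117, the others 1355 to 1403). Whether library quality or animal differences go with these values was not tested.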

How the results depend on the processing

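No synthetase gene changed sign where it was called, and Iars2 in Treg was called under each alternative. Called synthetase genes in Tcon numbered 3 with DESeq2, 3 without replicate 3 of both groups, 2 with the replicate block, 0 with a constant prior, 0 with Ddx3y as a covariate, 0 without venetoclax replicates 1 and 3, and 0 to 2 when each library was left out in turn. In Treg they numbered 1 with the constant prior, with the covariate, without replicate 3 of both groups and without venetoclax replicates 1 and 3, and 1 to 4 when each library was left out. For the difference, 1 passed with the code as a replicate block. All genes called in Tcon numbered 1371 with DESeq2, 326 with the covariate, 1880 with the replicate block, 1443 without replicate 3, 116 without venetoclax replicates 1 and 3, and 306 (without venetoclax replicate 1) to 1244 (without vehicle replicate 3). In Treg they numbered 1028 without replicate 3, 614 without venetoclax replicates 1 and 3, and 1327 (without venetoclax replicate 1) to 2198 with a library left out. For the difference they numbered 389 with the replicate block, 4 without venetoclax replicates 1 and 3, and 58 (without Treg venetoclax replicate 2) to 203 with a library left out. The replicate numbers did not pair every library in either subset, and in Treg the block moved Vars alone past the threshold (adjusted p = 0.0224 with limma). With the covariate the median change was -0.086 for mitochondrial genes in Tcon and 0.015 for cytosolic genes in Treg. Lengths from all annotated exons were an alternative chosen after seeing the data. They gave median cytosolic to mitochondrial ratios of 4.15 in venetoclax and 3.89 in vehicle Treg. In Tcon the ratios were 3.69 in venetoclax and 3.17 in vehicle libraries, below those of Treg, the reverse of the order with the main lengths. Why these values moved was not tested, except that leaving out libraries leaves fewer samples.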

Other observations

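Ears2, the mitochondrial glutamyl-tRNA synthetase, overlaps Ubfd1 on the other strand by 89 bases (4.3% of its exonic bases). Ubfd1 was at 1849 ± 193.0 in venetoclax and 962.6 ± 71.8 in vehicle Treg (SD, n = 4; log2 0.938, adjusted p = 3.55e-05 with limma), and at 1725 ± 219.0 in venetoclax and 935.7 ± 60.4 in vehicle Tcon (SD, n = 4; log2 0.876, adjusted p = 0.000801 with limma). Ears2 itself was at 466.7 ± 63.6 in venetoclax and 405.1 ± 24.6 in vehicle Treg (SD, n = 4; log2 0.196, adjusted p = 0.174 with limma), and at 552.5 ± 84.1 in venetoclax and 539.3 ± 20.3 in vehicle Tcon (SD, n = 4; log2 0.023, adjusted p = 0.932 with limma). The part of reads from the overlap was not tested. Aars shares 1326 exonic bases (23.1%) with Exosc6, an exosome subunit on the same strand, and neither was called in either subset.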
